A study of Mus musculus with 8 samples.

Results

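The unfolded protein response is the set of genes with which a cell answers unfolded protein in the endoplasmic reticulum (ER). The 33 genes described here were taken by name from a list and belong to 4 branches: 15 ER chaperones and folding enzymes, 6 genes of ER-associated degradation (ERAD), 8 genes of the PERK-ATF4 branch, and 4 genes for the stress sensors and the factor XBP1. All 33 were found among the 24411 gene names of the count table, and all 33 passed the filter on low counts. Expression was measured by RNA sequencing in whole aortas of 8 mice, 1 library per mouse. The caIKK2EC group had 5 mice, caIKK2(+/+) BMXCreERT2(+/-) ApoE(-/-), in which tamoxifen lets a Cre recombinase under the Bmx gene's control remove a stop cassette in arterial endothelium and so turn on constitutively active IKK2, the kinase that activates NF-κB, together with EGFP. The Control group had 3 Cre-negative littermates, caIKK2(+/+) BMXCreERT2(-/-) ApoE(-/-), which carry the same transgene in its silent state. All 8 mice lacked ApoE, received tamoxifen (1 mg per 20 g on 5 days) and ate a Western-type diet for 12 weeks. The caIKK2EC mice were females of 18 weeks (caIKK2EC 1 and 3) or 19 weeks (caIKK2EC 2, 4 and 5). Control 1 and 2 were females of 18 weeks, and Control 3 was a male of 19 weeks. Whether the kinase was switched on early or late in disease in these 8 mice is not stated in the labels.

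Sensor proteins in the ER membrane start the response. IRE1α, made from Ern1, splices the Xbp1 transcript, PERK, made from Eif2ak3, phosphorylates the translation factor eIF2α and so favours translation of ATF4, and ATF6 is cut in the Golgi to release a transcription factor. XBP1 and ATF6 raise transcription of chaperone and ERAD genes through promoter elements such as the ER stress response element (ERSE), and ATF4 raises genes of amino acid supply and, when stress lasts, the pro-apoptotic factor CHOP. Markers of this response have been described in macrophages, endothelium and smooth muscle of atherosclerotic plaques. Gene counts do not separate spliced from unspliced Xbp1 and show neither phosphorylation nor cleavage.

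Total counts were 23461655 to 30808502 per library. The deposited column names hold a 7 for caIKK2EC 1 and the 3 Controls and an 8 for caIKK2EC 2 to 5. This digit is read here as the sequencing lane, which neither the names nor the labels state. On this reading lane and genotype are largely confounded, and lane 7 holds 1 caIKK2EC library. Ikbkb, the gene for IKK2, was at 99.3, 103, 98.7, 99.9 and 91.6 CPM in caIKK2EC 1 to 5, against 86.8, 87.0 and 65.4 CPM in Control 1 to 3. The groups did not overlap, and its log2 fold change (0.30, SE 0.12, adjusted p = 0.237 in edgeR) did not pass. Without Control 3 the log2 fold change of Ikbkb was 0.18. The smooth muscle markers of an aorta were abundant in every library, and the sum of 10 of them was 10658 to 21950 CPM in caIKK2EC and 19450 to 39205 CPM in Control. Control 3 stood apart, with the highest smooth muscle sum (39205 CPM) and the lowest macrophage marker sum (2223 CPM), and its sex and its age of 19 weeks among Controls cannot be told apart from the library itself. The largest part of the macrophage sum was Lyz2, at 4059, 4399 and 541 CPM in Control 1 to 3. Control 3 was the lowest library for 7 of the 10 macrophage markers. For Adgre1, Mrc1 and Itgam it lay between the other Controls. Heart muscle transcripts were high in caIKK2EC 1 and Control 1, where 10 striated muscle markers summed to 1167 and 2375 CPM, against 39.7 to 141 CPM in the other 6 libraries. caIKK2EC 1 also had the lowest smooth muscle sum (10658 CPM). Its adipocyte marker sum was 6792 CPM, against 972 to 2458 CPM in caIKK2EC 2 to 5. All values given within lane 7 rest on this library, and so do those with lane as a covariate, because lane 8 holds no Control.

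No member passed the test over all genes. Levels are given in CPM, which are reads scaled to a common library size, and the test was edgeR's quasi-likelihood test with Benjamini-Hochberg adjustment over 14679 genes at an adjusted p of 0.05. It called 0 of 33 members, as it called 0% of all genes tested, although 17.1% of them had an unadjusted p under 0.05. At an unadjusted p under 0.05 it put 4 members higher (12.1%, against 9.66% of all genes) and 1 lower (3.03%, against 7.47%). DESeq2, another count test, called 1 member higher, Sdf2l1 (3.03%, against 4.55% of 14340 genes), and 0 lower (against 1.51%), where 6.06% of genes were called in either direction. With age added to the edgeR fit 1 member was called higher, again Sdf2l1 (against 2.77% of genes), and 0 lower (against 1.73%). Every caIKK2EC library lay above every Control for 5 members (15.2%, against 7.01% of all genes) and below for 1 (3.03%, against 3.22%). The shares called by the tests were near those of all genes or below them, apart from the unadjusted higher ones (12.1% against 9.66%). Members that lay above every Control were also more frequent (15.2% against 7.01%), and those that lay below were not (3.03% against 3.22%). The excess was not tested.

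The log2 fold changes of the members were small and mostly above 0. Their median was 0.24 against -0.02 over all genes tested, and 28 of 33 (84.8%) were above 0 against 47.4% of all genes. The branches differed in their values. The median was 0.27 for the chaperones, 0.14 for ERAD, 0.04 for the PERK-ATF4 branch and 0.27 for the sensors and Xbp1. These medians describe the libraries, and the difference between branches was not tested. Without Control 3 the medians were 0.17 for the chaperones, 0.25 for ERAD, -0.07 for the PERK-ATF4 branch and 0.37 for the sensors. Within lane 7, where caIKK2EC 1 was set against the mean of the Controls, they were 0.35, 0.10, 0.01 and 0.05 in the same order. These lane 7 values rest on 1 caIKK2EC library, which differed from the other caIKK2EC libraries in its muscle and adipocyte markers. Because a whole aorta holds many cell types, fewer cells of a type and less RNA per cell cannot be told apart in any of these values.

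**Figure D1:**
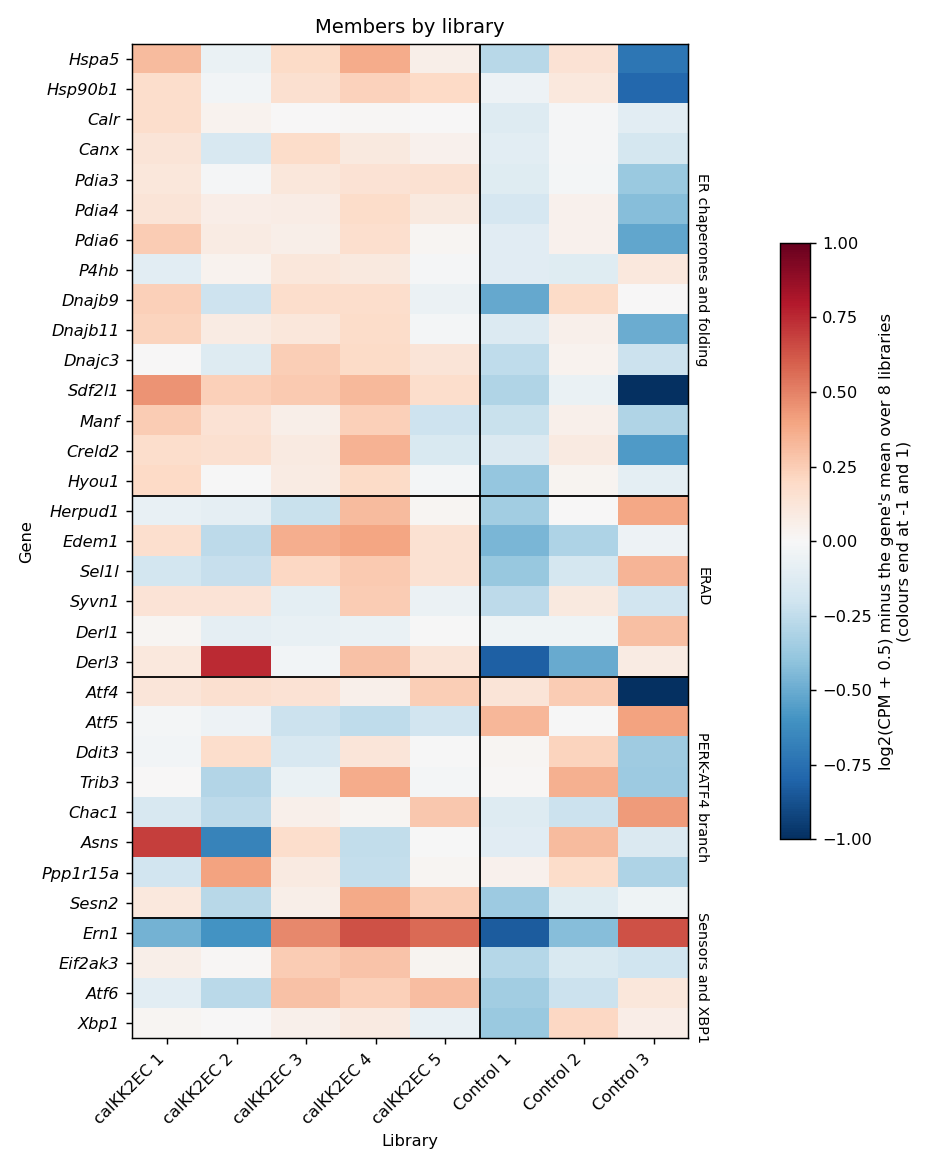
Colours show, for each of the 33 members (rows, by branch) and each library (columns, caIKK2EC left of Control), log2(CPM + 0.5) minus the mean of the gene over the 8 libraries. The chaperone rows are mostly red in caIKK2EC and blue in Control 1 and Control 3, while Control 2 is close to the caIKK2EC libraries and the PERK-ATF4 rows show no common split.

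The genes of ER chaperones and folding enzymes had higher mean levels in caIKK2EC aortas throughout, and 0 of 15 passed in edgeR, against 1 in DESeq2. All 15 log2 fold changes were above 0, from 0.07 for P4hb to 0.72 for Sdf2l1. Under other settings P4hb turned to -0.069 with lane as a covariate, a value that rests on caIKK2EC 1. Dnajb9 turned to -0.011 without Control 1 and to -0.062 without both libraries that hold heart muscle transcripts. The Controls did not lie evenly below. Control 1 was below all 5 caIKK2EC libraries for 13 of 15 chaperones and Control 3 for 13 of 15, whereas Control 2 was below for 5 and inside the caIKK2EC range for 10. Control 3 was the lowest of the 8 libraries for 10 of 15 chaperones (66.7%), against 28.2% of all genes tested. Over all 33 members it was the lowest for 14 and the highest for 6, against 25.8% of all genes for the highest.

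Sdf2l1 encodes a soluble ER protein that works with the chaperone BiP and its DNAJB11 cofactor (chr16:17130138-17132383, minus strand, GRCm38). It was at 66.3, 57.1, 58.0, 60.8 and 54.6 CPM in caIKK2EC 1 to 5, against 39.2, 46.1 and 22.6 CPM in Control 1 to 3. All 5 caIKK2EC libraries were above all 3 Controls, and Control 3 was the lowest. The two-sided exact permutation test gave p = 0.0357, the lowest value this design can give. Any gene whose groups do not overlap gets this unadjusted p, so it adds nothing to the lack of overlap. The mean of Sdf2l1 was 59.3 ± 4.48 CPM in caIKK2EC (SD, n = 5) and 35.98 ± 12.1 CPM in Control (SD, n = 3). Its log2 fold change (0.72, SE 0.20, adjusted p = 0.143 in edgeR) did not pass. DESeq2 gave 0.72 (SE 0.22, adjusted p = 0.0225) and called it. The authors' deposited table, also made with DESeq2, holds the same values and is not separate evidence. Without Control 3 the log2 fold change was 0.48 in edgeR, which did not call it, and 0.49 in DESeq2 on the 7 females, which did (adjusted p = 0.0265). Within lane 7 the log2 difference was 0.93.

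Hspa5 and Hsp90b1 encode BiP and GRP94, the main Hsp70- and Hsp90-type chaperones of the ER lumen, and are given for that role, a choice made after their values were seen. Hspa5 (chr2:34771970-34777547, plus strand) was at 999, 765, 916, 1036 and 837 CPM in caIKK2EC 1 to 5, against 661, 887 and 486 CPM in Control 1 to 3. Control 2 lay among the caIKK2EC libraries, so the groups overlapped, and the log2 fold change (0.43, SE 0.20, adjusted p = 0.316 in edgeR) did not pass. Hsp90b1 (chr10:86690209-86705509, minus strand) was at 906, 787, 895, 940.0 and 919 CPM in caIKK2EC 1 to 5, against 772, 862 and 464 CPM in Control 1 to 3. Control 3 was far below the other 7 libraries, and the log2 fold change (0.35, SE 0.20, adjusted p = 0.399 in edgeR) became 0.12 without it. Exons of an opposite-strand pseudogene overlap 10.3% of its exon length, and whether counting used the strand is unknown. For Hspa5 the value without Control 3 was 0.24, and within lane 7 the log2 differences were 0.60 for Hspa5 and 0.42 for Hsp90b1.

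Among the protein disulfide isomerases, which form and rearrange disulfide bonds, Pdia4 was at 167, 159.8, 160.4, 174 and 163 CPM in caIKK2EC 1 to 5, against 136, 158 and 114 CPM in Control 1 to 3. Pdia3, the isomerase that works on glycoproteins with calnexin and calreticulin, was at 778, 716, 778, 799 and 801 CPM in caIKK2EC 1 to 5, against 664, 711 and 556 CPM in Control 1 to 3. In both genes the groups did not overlap, and in both Control 2 lay just below the lowest caIKK2EC library. The log2 fold change (0.28, SE 0.12, adjusted p = 0.279 in edgeR) of Pdia4 did not pass, nor did the log2 fold change (0.27, SE 0.13, adjusted p = 0.331 in edgeR) of Pdia3. Without Control 3 the value was 0.17 for Pdia4 and 0.17 for Pdia3. Pdia6 averaged 329 ± 21.9 CPM in caIKK2EC (SD, n = 5) and 268 ± 51.6 CPM in Control (SD, n = 3). P4hb, which is protein disulfide isomerase itself and also the β subunit of collagen prolyl hydroxylase, averaged 845 ± 51.5 CPM in caIKK2EC (SD, n = 5) and 807 ± 74.7 CPM in Control (SD, n = 3) and had the lowest log2 fold change of the branch.

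Calreticulin and calnexin are the lectin chaperones that hold glycoproteins until they fold. Calr had the highest CPM of the members and also the highest level per length, with means of 365 CPM per kb of exon in caIKK2EC and 334 CPM per kb in Control. It was at 1150.2, 1044, 1022, 1024 and 1020.5 CPM in caIKK2EC 1 to 5, against 930.0, 1011 and 945 CPM in Control 1 to 3. The groups did not overlap although the difference was small, and the log2 fold change (0.13, SE 0.12, adjusted p = 0.632 in edgeR) did not pass. Calr has an annotated pseudogene, Calr-ps, and reads that match both cannot be assigned with certainty. Canx averaged 548 ± 47.9 CPM in caIKK2EC (SD, n = 5) and 490.0 ± 28.5 CPM in Control (SD, n = 3), and its groups overlapped.

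The remaining 6 folding genes had overlapping groups and log2 fold changes between 0.15 and 0.32. Dnajb11, Dnajc3 and Dnajb9 encode J-domain cofactors of BiP, and their log2 fold changes were 0.30, 0.23 and 0.15. Hyou1, an exchange factor of BiP, had 0.24, and Creld2, a protein with disulfide isomerase activity that ER stress induces, had 0.32. Manf encodes a secreted protein that binds BiP and protects cells under ER stress, and it averaged 137 ± 16.8 CPM in caIKK2EC (SD, n = 5) and 114 ± 15.3 CPM in Control (SD, n = 3).

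**Figure D2:**
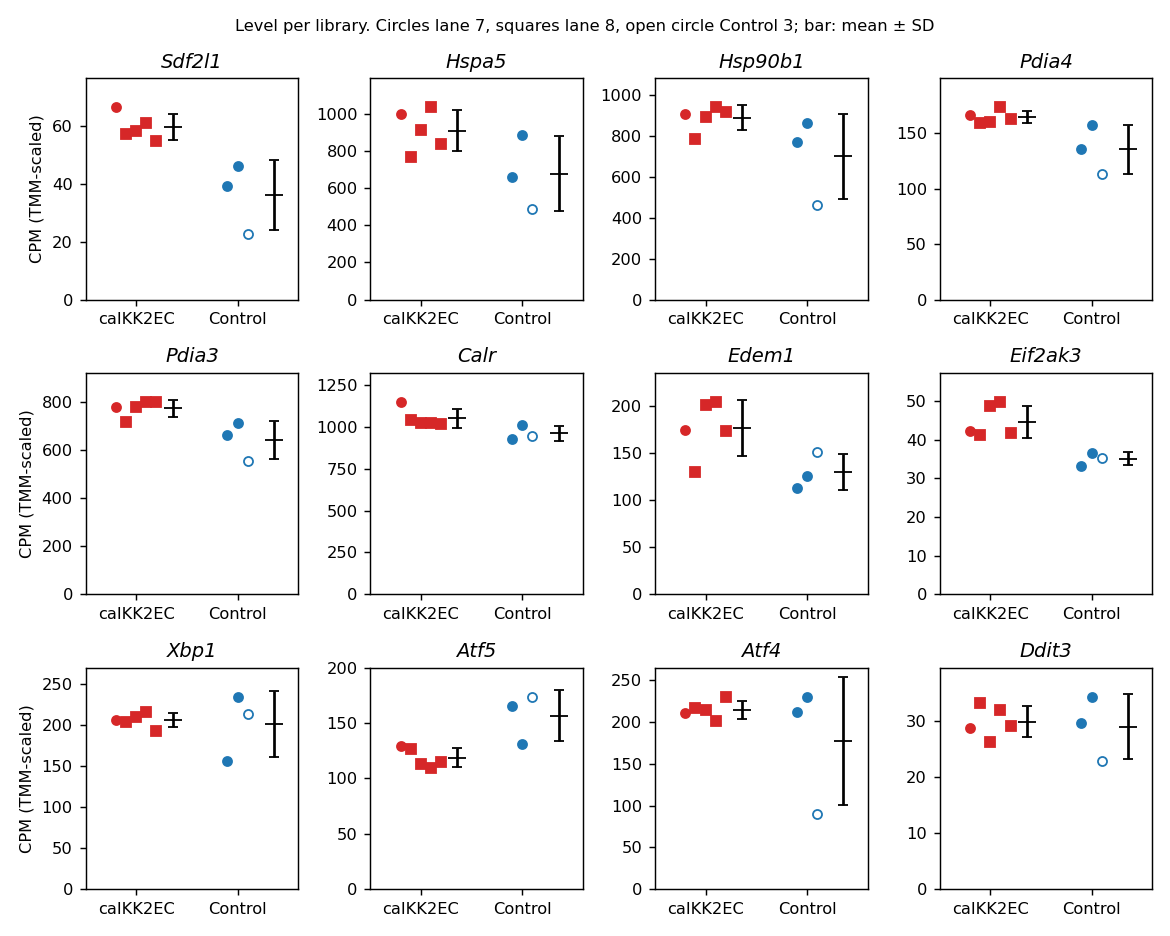
Points show CPM per library on a linear axis from 0 for 12 members, caIKK2EC in red left of Control in blue, with the mean and SD beside them. Sdf2l1, Pdia4, Pdia3, Calr and Eif2ak3 are higher in every caIKK2EC library, Atf5 is lower in every one, and the open circle of Control 3 is the lowest point for Sdf2l1, Hspa5, Hsp90b1, Pdia4, Pdia3, Atf4 and Ddit3.

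Promoter sequences are shown for the members in which a binding element of the response could be read, since the chaperone differences had the same sign. RefSeq windows of 300 bases (GRCm38.p6, 250 before to 50 after a transcription start) were at hand for 29 of 33 members, and Hyou1, Manf, Derl1 and Atf6 had none. The ERSE, searched on both strands as CCAAT and CCACG with 9 bases of any kind between them, was found in 9 of 29 members, against 0.137% of 27025 genes. Its shorter form ERSE-II, searched on both strands as ATTGG and CCACG with 1 base between them, was found in Dnajb11 and Herpud1, against 0.0444% of genes. Many members belong to the response as known targets of such elements, so the share is a description and not a test. The matches are given in the direction of the motif, with its fixed letters in capitals.

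Hspa5: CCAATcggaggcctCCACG
Hsp90b1, distal: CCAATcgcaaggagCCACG
Hsp90b1, proximal: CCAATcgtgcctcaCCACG
Pdia6: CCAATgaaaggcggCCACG
Dnajc3: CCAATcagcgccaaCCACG
Creld2: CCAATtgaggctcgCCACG
Canx: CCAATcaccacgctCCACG
Calr: CCAATgagggtcgaCCACG
Syvn1: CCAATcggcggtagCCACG
Derl3: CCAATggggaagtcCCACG
Dnajb11, ERSE-II: ATTGGcCCACG
Herpud1, ERSE-II: ATTGGgCCACG

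The 10 ERSE matches began 44 to 212 bases before the RefSeq start site, and 6 read in the direction of the gene. In GENCODE the Hspa5 gene begins earlier, at base 34771970. Its ERSE (chr2:34772025-34772043) is thus upstream of the RefSeq start only. Hsp90b1 held 2 of them, in opposite directions. In Dnajb11 the ERSE-II lay inside the transcript, from base 7 after the start. The windows of Hspa5, Hsp90b1 and Herpud1 follow in full. By the exact letters searched, the first holds a single ERSE match and the second a pair. The third holds an ERSE-II and an amino acid response element (AARE), the site of ATF4, searched as TTGCATCA on both strands. Sites that differ from these letters were not searched for. Capitals mark the whole matched elements.

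Hspa5, chr2:34771840-34772139, plus strand: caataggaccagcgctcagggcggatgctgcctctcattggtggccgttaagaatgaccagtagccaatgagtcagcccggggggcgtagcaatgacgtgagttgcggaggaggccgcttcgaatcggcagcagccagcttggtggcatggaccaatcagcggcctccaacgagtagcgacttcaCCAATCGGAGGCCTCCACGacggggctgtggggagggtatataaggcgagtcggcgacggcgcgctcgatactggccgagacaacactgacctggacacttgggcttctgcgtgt
Hsp90b1, chr10:86705395-86705694, minus strand: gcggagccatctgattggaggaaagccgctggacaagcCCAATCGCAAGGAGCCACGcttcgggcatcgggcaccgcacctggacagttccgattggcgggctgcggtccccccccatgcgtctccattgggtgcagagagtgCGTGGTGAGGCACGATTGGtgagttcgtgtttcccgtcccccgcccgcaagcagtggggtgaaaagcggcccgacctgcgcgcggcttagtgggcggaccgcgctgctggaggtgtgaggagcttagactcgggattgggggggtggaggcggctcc
Herpud1, chr8:94386179-94386478, plus strand: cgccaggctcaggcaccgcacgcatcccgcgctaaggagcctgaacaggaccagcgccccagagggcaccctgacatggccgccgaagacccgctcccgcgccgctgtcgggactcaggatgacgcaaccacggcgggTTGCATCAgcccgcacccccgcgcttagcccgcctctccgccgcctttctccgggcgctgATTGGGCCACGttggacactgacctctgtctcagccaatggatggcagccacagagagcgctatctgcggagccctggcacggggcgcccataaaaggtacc

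The 11 members with an ERSE or ERSE-II had a median log2 fold change of 0.29, and the 18 with a window and neither element had 0.12. Without Control 3 the order turned, with 0.16 for the 11 and 0.17 for the 18. Within the chaperones the medians were close, 0.30 for the 8 with an element and 0.27 for the 5 without, and without Control 3 they were 0.15 and 0.17. Sdf2l1, with the largest difference of the branch, had neither sequence in its window. The AARE was found in Chac1 and Herpud1, against 1.03% of genes, and their log2 fold changes were -0.07 and -0.04. The core of another XBP1 and ATF6 site, searched as TGACGTGG on both strands, was found in 0 of 29 members, against 0.714% of genes, and the ATF and C/EBP composite TGATGNAAT in 0 of 29, against 1.08%. No match says only that these letters are not in the window.

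**Figure D3:**
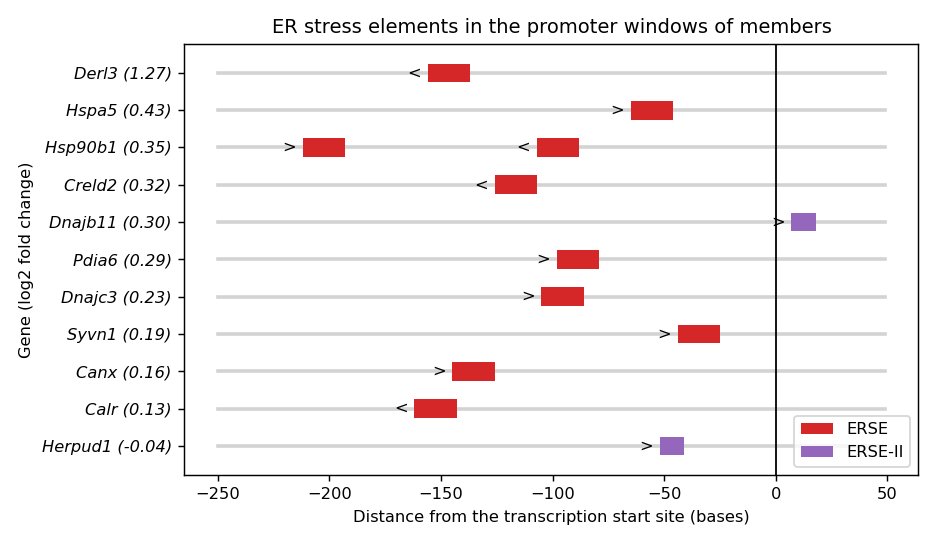
Boxes show ERSE and ERSE-II matches by distance from the transcription start site (bases, 0 at the start) in the 11 members that held one, ordered by log2 fold change, and arrowheads give the direction of the match. The ERSE boxes begin 44 to 212 bases before the start and end before it, across genes whose log2 fold changes run from 0.13 to 1.27.

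ERAD draws misfolded proteins out of the ER for destruction by the proteasome. Edem1, whose protein trims mannose from misfolded glycoproteins and marks them for removal, was at 174, 129.7, 200.5, 204 and 173 CPM in caIKK2EC 1 to 5, against 113, 125 and 150.3 CPM in Control 1 to 3. The groups overlapped, because caIKK2EC 2 lay below Control 3, and the log2 fold change (0.44, SE 0.17, adjusted p = 0.22 in edgeR) did not pass. Its log2 fold change was 0.57 without Control 3 and 0.44 within lane 7. Sel1l, the adaptor of the main ERAD ubiquitin ligase and the member of this branch with the highest CPM, was at 164, 159, 215, 223 and 207 CPM in caIKK2EC 1 to 5, against 143, 165 and 237 CPM in Control 1 to 3. Control 3 was the highest library here, and the log2 fold change was 0.09, or 0.33 without it. Syvn1, which encodes the ligase HRD1 itself, averaged 82.5 ± 8.36 CPM in caIKK2EC (SD, n = 5) and 72.2 ± 9.94 CPM in Control (SD, n = 3).

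Herpud1, which organises the ligase complex, and Derl1, a channel component, had log2 fold changes just below 0, -0.04 and -0.12, and Control 3 was the highest library for both. Without Control 3 the values were 0.16 for Herpud1 and -0.00087 for Derl1. Derl3, a derlin of secretory cells such as plasma cells, had very few reads, 17, 31, 13, 23 and 21 in caIKK2EC 1 to 5, against 3, 7 and 14 in Control 1 to 3. The groups overlapped, and the log2 fold change (1.27, SE 0.59, adjusted p = 0.306 in edgeR) was 2.09 without Control 3 and 0.52 within lane 7. Plasma cell markers stood beside it as follows: the 10 listed summed to 138 to 219 CPM in caIKK2EC and 119 to 144 CPM in Control, mostly from Sdc1, which other cell types express too. Of the more specific ones, Jchain was at 6.68, 11.7, 11.7, 30.2 and 30.7 CPM in caIKK2EC 1 to 5, against 12.2, 7.8 and 0.688 CPM in Control 1 to 3, and Mzb1 was at 0.256 to 1.53 CPM in caIKK2EC and 0.63 to 0.924 CPM in Control. Of the 8 markers tested, 5 had log2 fold changes above 0, and Eaf2 (-0.76), Irf4 (-0.22) and Pou2af1 (-0.04) lay below. Tnfrsf17, which did not pass the filter on low counts, averaged 0.151 CPM in caIKK2EC. It was at 1.48, 0.185 and 0.229 CPM in Control 1 to 3. No marker of the list was without reads in all libraries, and 0 of the 8 tested passed in edgeR. The part of plasma cells in the Derl3 value was not tested.

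Of the sensor genes, Eif2ak3 showed a difference in all 5 caIKK2EC libraries. It encodes PERK (chr6:70844515-70905245, plus strand) and was at 42.4, 41.1, 48.6, 49.8 and 41.6 CPM in caIKK2EC 1 to 5, against 33.3, 36.6 and 35.4 CPM in Control 1 to 3. The groups did not overlap, and Control 3 lay between Control 1 and 2. Its log2 fold change (0.35, SE 0.11, adjusted p = 0.169 in edgeR) did not pass. It was 0.35 without Control 3 and 0.27 within lane 7, and from 0.27 to 0.40 under the alternatives tried. A predicted gene of the opposite strand overlaps 8.05% of its exon length, and the strand setting of the counting is unknown here too. In all, 11 members share some exon bases with another gene, and for those whose share is not given it was at most 4.71% with any 1 gene.

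Ern1, the gene for IRE1α, varied widely within both genotypes. It was at 14.3, 13.1, 28.1, 31.4 and 29.9 CPM in caIKK2EC 1 to 5, against 11.0, 14.8 and 31.5 CPM in Control 1 to 3. The 4 libraries at 11.0 to 14.8 CPM came from both groups (caIKK2EC 1 and 2, Control 1 and 2), as did the 4 at 28.1 to 31.5 CPM (caIKK2EC 3, 4 and 5, Control 3). The log2 fold change of 0.29 (SE 0.39) was 0.86 without Control 3 and -0.26 within lane 7. Atf6 was at 79.6, 71.0, 105, 101 and 106 CPM in caIKK2EC 1 to 5, against 67.3, 73.8 and 92.7 CPM in Control 1 to 3, and its 4 lowest libraries were the same as for Ern1. Xbp1, whose spliced form drives chaperone and ERAD genes, was at 206, 204, 211, 217 and 193 CPM in caIKK2EC 1 to 5, against 157, 235 and 213 CPM in Control 1 to 3. The caIKK2EC values lay inside the Control range, and the log2 fold change was 0.03 (SE 0.14, edgeR adjusted p = 0.934).

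**Figure D4:**
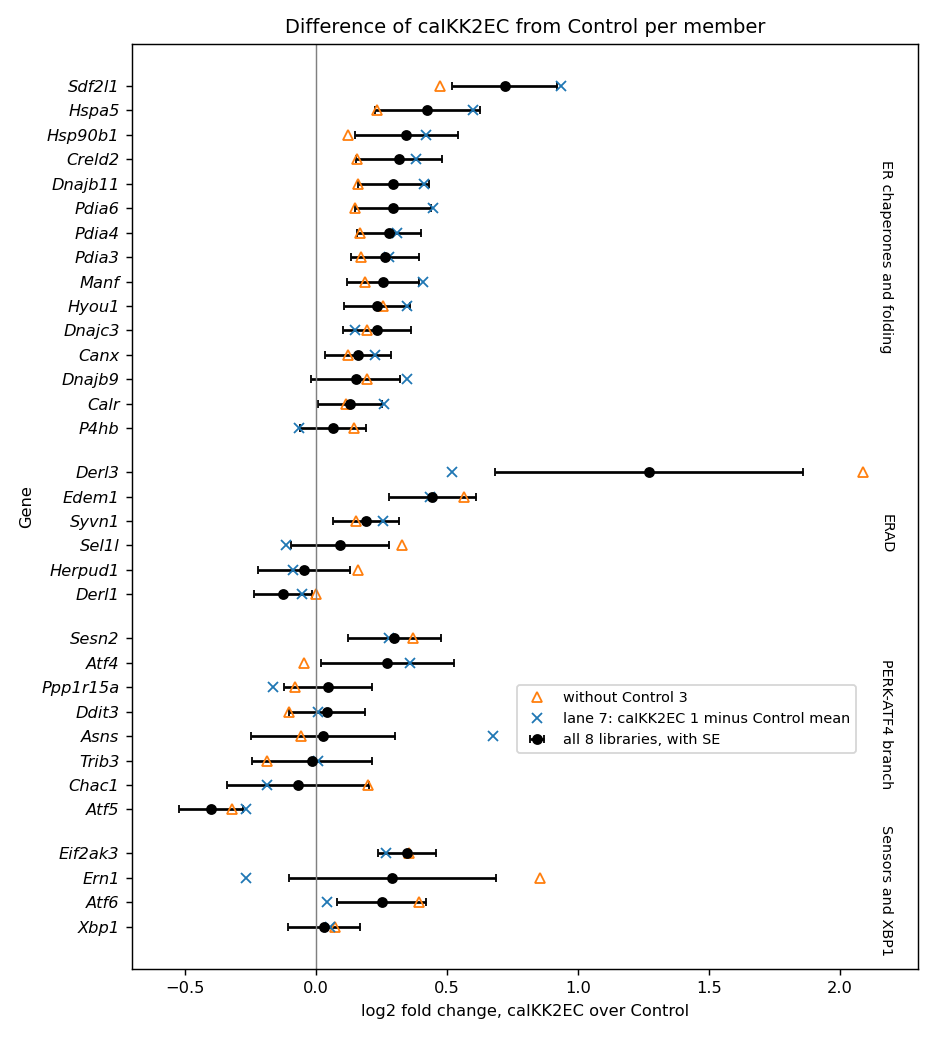
Black points show the log2 fold change of caIKK2EC over Control for each member with its SE, open triangles the value without Control 3, and crosses the log2 difference of caIKK2EC 1 from the mean of the 3 Controls in lane 7. Most chaperone triangles lie left of their points, as for Hsp90b1 (0.35 and 0.12), while those of Edem1, Sel1l and Ern1 lie to the right.

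The PERK-ATF4 branch had no common direction. Atf4, the transcription factor whose translation rises when PERK is active, was at 211, 217, 214, 201 and 230.0 CPM in caIKK2EC 1 to 5, against 212, 231 and 89.8 CPM in Control 1 to 3. Control 3 was far below, and the other 7 libraries lay between 201 and 231 CPM. The log2 fold change (0.27, SE 0.25, adjusted p = 0.626 in edgeR) became -0.04 without Control 3. Atf5, a related factor that also acts in the mitochondrial stress response (chr7:44812256-44816658, minus strand), was at 129.5, 127, 113, 109.9 and 115 CPM in caIKK2EC 1 to 5, against 166, 131 and 174 CPM in Control 1 to 3. It was lower in every caIKK2EC library than in any Control, with caIKK2EC 1 just below Control 2. The log2 fold change (-0.40, SE 0.12, adjusted p = 0.161 in edgeR) did not pass. The value was -0.32 without Control 3, -0.27 within lane 7, and between -0.50 and -0.28 under the alternatives. DESeq2 did not call Atf5 (adjusted p = 0.0556), and Nup62 and Il4i1 on the opposite strand overlap 4.11% of its exon length.

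The stress targets of ATF4 lay close together in the groups. Ddit3, which encodes CHOP, averaged 29.9 ± 2.78 CPM in caIKK2EC (SD, n = 5) and 29.0 ± 5.81 CPM in Control (SD, n = 3). Trib3, a pseudokinase that CHOP and ATF4 induce, averaged 7.08 ± 1.32 CPM in caIKK2EC (SD, n = 5) and 7.15 ± 1.89 CPM in Control (SD, n = 3), and Chac1, a glutathione-degrading enzyme often used as a readout of ATF4, averaged 2.82 ± 0.481 CPM in caIKK2EC (SD, n = 5) and 2.97 ± 0.888 CPM in Control (SD, n = 3). Ppp1r15a encodes GADD34, which directs the removal of phosphate from eIF2α, and averaged 67.0 ± 12.6 CPM in caIKK2EC (SD, n = 5) and 64.9 ± 10.9 CPM in Control (SD, n = 3). Asns, asparagine synthetase, ranged from 10.8 to 28.6 CPM in caIKK2EC and 15.8 to 21.9 CPM in Control, and its spread within caIKK2EC was wider than that within Control. For these 5 genes the log2 fold changes ran from -0.07 to 0.05, with standard errors of 0.15 to 0.28. Sesn2, a stress-induced inhibitor of mTORC1, had 0.30 (SE 0.18, edgeR adjusted p = 0.421).

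Other genes of the same pathway, from lists of textbook members, had median log2 fold changes of 0.00 to 0.10 by list. Of 24 further folding factors in the table, 0 passed in edgeR and 0 in DESeq2, and their median log2 fold change was 0.00 against 0.27 for the 15 chaperones above. Ero1lb, an oxidase that recharges the disulfide isomerases, had 0.39, and Prdx4, an ER peroxidase, had -0.39, both with an unadjusted edgeR p under 0.05. Of 20 genes tested for translocation and N-glycosylation 0 passed in either tool, with a median of 0.00, and the 2 with the highest CPM, Rpn2 and Ssr3, had -0.03 and 0.08. Of 16 further ERAD genes 0 passed, with a median of 0.04, and Os9, an ERAD lectin, was higher in every caIKK2EC library, at 227 ± 6.3 CPM in caIKK2EC (SD, n = 5) and 189 ± 16.9 CPM in Control (SD, n = 3) (0.27, SE 0.11, edgeR adjusted p = 0.237). Of 15 further sensors and factors 0 passed, with a median of 0.10, and Eif2ak4, the eIF2α kinase that senses amino acid lack, had 0.30 with no overlap between the groups. In a list of 13 cytosolic heat shock genes, which answer to another compartment, 0 passed, with a median of 0.03. There Hspb1 had -0.48 and Dnajb1 0.40, both with an unadjusted edgeR p under 0.05.

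Of 31 further ATF4 targets tested, edgeR called 0 and DESeq2 called 2 higher, Gdf15 and Slc3a2 (6.45%, against 4.55% of all genes). Gdf15, a stress-induced cytokine that macrophages also make, was at 18.6, 39.4, 21.5, 25.2 and 23.7 CPM in caIKK2EC 1 to 5, against 11.3, 15.4 and 8.81 CPM in Control 1 to 3. All caIKK2EC libraries were above all Controls. The log2 fold change (1.12, SE 0.27, adjusted p = 0.112 in edgeR) passed in DESeq2 (adjusted p = 0.00381) and not in edgeR. Slc3a2, the heavy chain of amino acid transporters, averaged 207 ± 13 CPM in caIKK2EC (SD, n = 5) and 161 ± 19.5 CPM in Control (SD, n = 3) (0.36, DESeq2 adjusted p = 0.0445). Mthfd2, a mitochondrial folate enzyme, had 0.42, and Phgdh, the entry enzyme of serine synthesis, had -0.72. At an unadjusted edgeR p under 0.05, 5 of the 31 were higher (16.1%, against 9.66% of all genes). By the same measure 1 was lower, Phgdh (3.23%, against 7.47%). The 4 genes named are those with the smallest p. The list's median was 0.05, close to the 0.04 of the members of this branch.

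**Figure D5:**
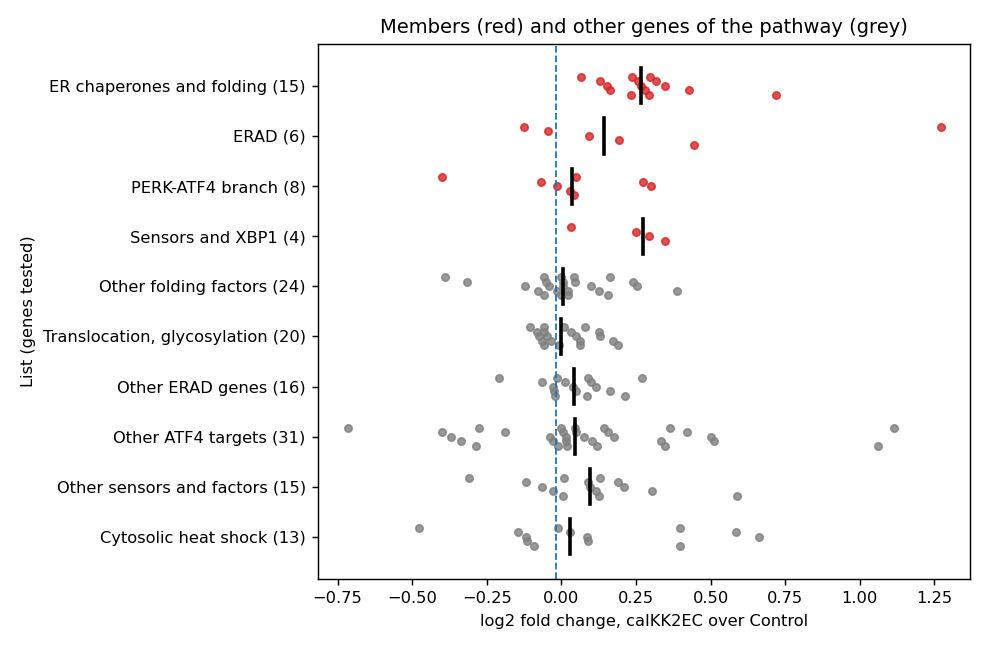
Each point is the log2 fold change of 1 gene, members in red and other genes of the pathway in grey, black bars give the median of a list, and the dashed line the median of all genes tested (-0.02). The chaperones (0.27) and the sensors with Xbp1 (0.27) lie to the right of the line, and the further folding, translocation and heat shock lists lie on or near it.

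Markers of cell types differed between the groups as well and are given beside the chaperone values. The 10 macrophage markers summed to 8818 to 12371 CPM in caIKK2EC and 2223 to 7251 CPM in Control. In 10 of 10 every caIKK2EC library lay above every Control (against 7.01% of all genes). DESeq2 called 9 of these 10 higher (against 4.55% of all genes), and edgeR called 0. The 10 smooth muscle markers had log2 fold changes below 0 throughout, with a median of -0.74. DESeq2 called 2 of them lower (against 1.51% of all genes). Endothelial markers summed to 2667 to 3350 CPM in caIKK2EC and 1593 to 3222 CPM in Control, fibroblast markers to 17497 to 23149 CPM in caIKK2EC and 13590 to 18093 CPM in Control, and adipocyte markers to 972 to 6792 CPM in caIKK2EC and 2980 to 3911 CPM in Control. The adipocyte sum of 6792 CPM was that of caIKK2EC 1, and the other caIKK2EC libraries were at 972 to 2458 CPM. DESeq2 called 1 of the 10 endothelial markers higher, Vwf (log2 fold change 0.59, adjusted p = 0.0488), whose groups did not overlap. It called 1 of the 10 fibroblast markers higher and 0 of the adipocyte markers. Every marker of these 5 lists had reads in some library. The 15 chaperones summed to 5923 to 6695 CPM in caIKK2EC, against 5363, 6055 and 4796 CPM in Control 1 to 3. Control 3, the lowest, was also the library with the lowest macrophage and endothelial marker sums. For the macrophage markers Adgre1, Mrc1 and Itgam it lay between the other Controls. The part of cell composition in the chaperone values was not tested. Immediate-early genes of tissue handling summed to 1296 to 2569 CPM in caIKK2EC and 1837 to 2306 CPM in Control.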

How the data were processed

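Poly(A) RNA of whole aortas (5 caIKK2EC, 3 Control, separate mice) was sequenced as directional single-end libraries, per the labels' protocols. The deposited table holds raw counts per gene. STAR 2.7.0e, FastQC 0.11.5, DESeq2 1.22.2 and the GRCm38 (mm10) build appear in the submitters' processing notes. Counting program, annotation and strand setting: not given in the sources. The authors' deposited comparison table gives log2 fold changes, p-values, a score (fold change over its standard error) and normalized counts as a signal, and 868 of its 869 calls were also made by DESeq2 here.

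Counts were tested with edgeR 4.0.16 (R 4.3.3): TMM scaling, default filter, genotype as the only term of a robust quasi-likelihood model, Benjamini-Hochberg adjustment. Alternatives were DESeq2 1.42.0 (total count of 10 or more), size factors, other filters, covariates, the replicate number as a block and left-out libraries. Exact two-sided tests ran over all 56 splits on log2(CPM + 0.5), with a smallest p of 0.0357. Every gene without overlap between the groups gets this p, and it was not adjusted over the members. Procedures were tested on simulated counts. Coordinates come from GENCODE M21, promoters from RefSeq.

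Values per library are given for members with an unadjusted edgeR p or DESeq2 adjusted p under 0.05, without overlap, with a branch's highest CPM, or coding for a sensor, and other lists name up to 4 genes with an unadjusted p under 0.05, or else the 2 with the highest CPM. Members and lists were chosen with earlier results of these data known. Hm13 is not analysed here, and Ero1l, Ero1lb and Vimp were matched under these older symbols.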

Additional observations from a re-analysis of the deposited data

Results flagged for a closer look

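Calr in caIKK2EC 1, at 1150 CPM, lay further from the other 4 caIKK2EC libraries (1020 to 1044 CPM) than the spread of those 4 allows by Dixon's criterion. Pdia3 in caIKK2EC 2, at 716 CPM, lay below the other 4 (778 to 801 CPM) by the same criterion. The 33 members were each examined once in the group of 5, and chance marks about 5% of groups. The Control group of 3 is too small for the criterion, so the low values of Control 3 were not examined by it.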

How the results depend on the processing

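With DESeq2, 652 genes were higher and 217 lower, with age as a covariate 407 and 254, and with DESeq2 on females 356 and 33, against 0 and 0 in edgeR. Leaving out each library gave 0 to 230 higher and 0 to 129 lower, and the calls came without caIKK2EC 2. Of the members, 1 was called higher in each of DESeq2, the age fit and DESeq2 on females (Sdf2l1 each time), and 0 in the other alternatives. Leaving out each library moved the median log2 fold change of the members from 0.16 (without Control 3) to 0.33 (without Control 2), that of the chaperones from 0.17 (without Control 3) to 0.39 (without Control 2), and that of the PERK-ATF4 branch from -0.068 (without Control 3) to 0.21 (without Control 2). With sex as a covariate, which sets Control 3 aside, the chaperone median was 0.17. With lane as a covariate, which leaves caIKK2EC 1 against the Controls, the median of the sensors was 0.033. The ERAD median moved by less than the spread between replicates throughout.

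Of 33 members, 20 kept their sign in all alternatives. Signs turned with sex as a covariate for Herpud1 (0.16), Atf4 (-0.045), Ddit3 (-0.10), Chac1 (0.20), Asns (-0.056) and Ppp1r15a (-0.081). Control 3 was the only male. The sex covariate, DESeq2 on females and leaving out Control 3 thus all set that library aside and are not separate alternatives. With lane as a covariate signs turned for P4hb (-0.069), Sel1l (-0.15), Ddit3 (-0.013), Ppp1r15a (-0.18) and Ern1 (-0.41). These values rest on caIKK2EC 1, since lane 8 holds no Control. With age signs turned for Trib3 (0.041). In DESeq2 on females they turned for Herpud1 (0.17), Derl1 (0.0095), Atf4 (-0.035), Ddit3 (-0.091), Chac1 (0.21), Asns (-0.045) and Ppp1r15a (-0.070). Without both libraries with heart muscle transcripts they turned for Dnajb9 (-0.062), Asns (-0.25) and Xbp1 (-0.11). Leaving out each library in turn gave ranges across 0 for Dnajb9 (-0.011 to 0.33), Herpud1 (-0.19 to 0.16), Sel1l (-0.036 to 0.33), Atf4 (-0.045 to 0.53), Ddit3 (-0.10 to 0.20), Trib3 (-0.19 to 0.21), Chac1 (-0.19 to 0.20), Asns (-0.18 to 0.22), Ppp1r15a (-0.080 to 0.17) and Xbp1 (-0.10 to 0.18). The cause was not tested. The settings of DESeq2 on females and of the libraries with heart muscle transcripts were chosen after seeing the data. Neither the size factors nor the filters changed a sign or a call, nor did a pseudocount of 2 move an exact p across 0.05.

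With the replicate number as a block, edgeR called 0 members and 0 genes. The median log2 fold change was 0.18 over the members and 0.27 over the chaperones. Only caIKK2EC has replicates 4 and 5, so the genotype term of this fit rests on the 3 same-numbered pairs. The numbers come from the sample titles. Same-numbered libraries had correlations of their deviations of 0.33, 0.099 and 0.097, so that not every pair was over 0.1, and 2 of 3 Controls were closest to the caIKK2EC library of their own number. Depth limits Derl3, with 129 reads in all 8 libraries.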

Other observations

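The levels of the sensor genes Ern1 and Atf6 were lowest in the same 4 libraries across the genotypes, and further genes shared these 4, a likeness noticed in the data and not tested. Sel1l had 143 to 165 CPM in caIKK2EC 1 and 2 and Control 1 and 2, and 207 to 237 CPM in caIKK2EC 3, 4 and 5 and Control 3. Edem3, another mannosidase-like ERAD gene, was at 58.3, 54.8, 93.5, 87.4 and 81.7 CPM in caIKK2EC 1 to 5, against 60.8, 67.7 and 95.3 CPM in Control 1 to 3. Creb3l2, an ATF6-related membrane-bound factor, was at 33.4, 34.2, 56.1, 60.0 and 50.9 CPM in caIKK2EC 1 to 5, against 36.8, 39.3 and 98.7 CPM in Control 1 to 3.

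Among the cytosolic chaperones, which were in no comparison of the members, Hspa8 was at 48.1, 181, 195, 196 and 182 CPM in caIKK2EC 1 to 5, against 26.4, 195 and 144 CPM in Control 1 to 3. Its values in caIKK2EC 1 and Control 1, both with heart muscle transcripts, were the lowest 2. Hspa1a, the stress-inducible Hsp70 gene, was at 25.7, 114, 45.9, 171 and 183 CPM in caIKK2EC 1 to 5, against 60.7, 81.2 and 62.5 CPM in Control 1 to 3.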
